A study of Caenorhabditis elegans with 6 samples.

Results

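The mitochondrial ATP synthase of *Caenorhabditis elegans* draws its b subunit from the genes *asb-1* and *asb-2* and its g subunit from *asg-1* and *asg-2*. These 4 genes were followed here in total RNA of first-stage larvae (L1) that had been fed and of mixed embryos, which span several ages. They were chosen by symbol, with stage differences of these arrays already known, and were read by the probe sets that the platform annotation assigns to that symbol alone. This gave 5 probe sets for 4 of the 17118 genes measured. Where a gene had several probe sets, its main one was selected on the highest mean over all 6 arrays. This choice arose only for *asg-1*, whose probe sets had means of 10.412 and 10.407.

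As background, ATP synthase uses the proton gradient across the inner mitochondrial membrane to make ATP. Its catalytic head stands in the matrix on a rotating stalk, and a ring in the membrane turns that stalk. The b subunit is part of the peripheral stalk, which keeps the head from turning with the ring. The g subunit lies in the membrane part and is known from yeast and mammals for its role in joining 2 synthases into a dimer. In *C. elegans*, *asb-1* is known as the form of the b subunit used in the germ line.

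Both stages came from N2, the wild-type laboratory strain. For the fed L1 group, eggs of bleached gravid adults hatched in M9 buffer over 24 h at 20 °C, and the larvae, at 10 per µL in S medium, were then fed for 3 h with *Escherichia coli* HB101 at 10 mg/mL. The mixed embryo group was taken directly from bleached gravid adults raised on agar with the same bacteria, and its titles add XX, the hermaphrodite karyotype. Each stage had 3 Affymetrix arrays of whole-animal total RNA. The L1 samples carry a source label that names embryos, but the other labels, the titles among them, name L1. The embryo arrays were taken over from an earlier series, so stage, array set, hatching in buffer and feeding cannot be told apart. The labels do not state whether replicates came from separate cultures, and the spread behind each p-value may therefore be technical. In whole animals, fewer cells of a type and less RNA per cell cannot be told apart.

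Values are RMA expression values on the log2 scale, and differences are fed L1 minus mixed embryo with limma's moderated standard error (SE). Over probe sets, r was 0.9925 to 0.9967 within a stage and 0.7752 to 0.7905 between stages. The threshold was a limma adjusted p under 0.05, passed by 64.4% of 17118 genes, 5685 of them upward in L1 and 5339 downward. When each array was centred on the ribosomal protein genes, 3778 were higher and 10071 lower, and the median of all differences moved by -0.38. Foreign control level is taken as 5.43, the maximum over 32 probe sets of *Bacillus* and yeast transcripts. These transcripts are assumed here not to have been spiked in. All 4 members lay above this level on every array.

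The b subunit genes differed in opposite directions between the stages. *asb-1* (F35G12.10, chromosome III) had values of 7.85, 7.87 and 7.91 in fed L1, against 10.21, 9.82 and 10.14 in mixed embryos. All L1 arrays lay below all embryo arrays, and the L1 arrays lay closer together than the embryo arrays. The means were 7.87 ± 0.03 in L1 and 10.06 ± 0.21 in embryos (SD, n = 3 each). The log2 difference was -2.18 (SE 0.11), which is 4.54-fold lower in L1. *asb-1* was read by 1 probe set, of a type whose design allows matches to related sequences, so no probe set of the stricter type was there to set beside it.

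*asb-2* (F02E8.1, chromosome X), the other copy of the b subunit gene, was higher in L1. It had values of 11.2108, 11.1099 and 11.1995 in fed L1, against 9.5128, 9.6666 and 9.3252 in mixed embryos. The stages again did not overlap, with the L1 arrays on top. The means were 11.17 ± 0.06 in L1 and 9.50 ± 0.17 in embryos (SD, n = 3 each). The log2 difference was 1.67 (SE 0.10), or 3.19-fold higher in L1.

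Of the g subunit genes, *asg-1* (K07A12.3, chromosome I) was lower in L1. Its values were 9.41, 9.67 and 9.26 in fed L1, against 11.199, 11.426 and 11.493 in mixed embryos. The log2 difference was -1.92 (SE 0.12), which is 3.79-fold lower in L1, with means of 9.45 ± 0.21 in L1 and 11.37 ± 0.15 in embryos (SD, n = 3 each). The second probe set gave 9.27, 9.93 and 9.47 in fed L1, against 11.003, 11.358 and 11.409 in mixed embryos, a log2 difference of -1.70 (SE 0.17). Both probe sets kept the stages apart, and in both L1 replicate 2 was the highest larval array and embryo array A the lowest embryonic one.

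*asg-2* (C53B7.4, chromosome X) differed least of the 4 genes. It had values of 11.61, 11.74 and 11.49 in fed L1, against 11.12, 11.25 and 11.30 in mixed embryos. The lowest L1 array stood above the highest embryo array by less than the range within L1. The means were 11.61 ± 0.12 in L1 and 11.23 ± 0.09 in embryos (SD, n = 3 each), and the log2 difference was 0.39 (SE 0.10), or 1.31-fold higher in L1. With ribosomal protein centring the difference of *asg-2* was 0.0051, so the larval excess of this gene depends on the scale. The same centring left *asb-2* at 1.29, *asb-1* at -2.57 and *asg-1* at -2.31.

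**Figure D1:**
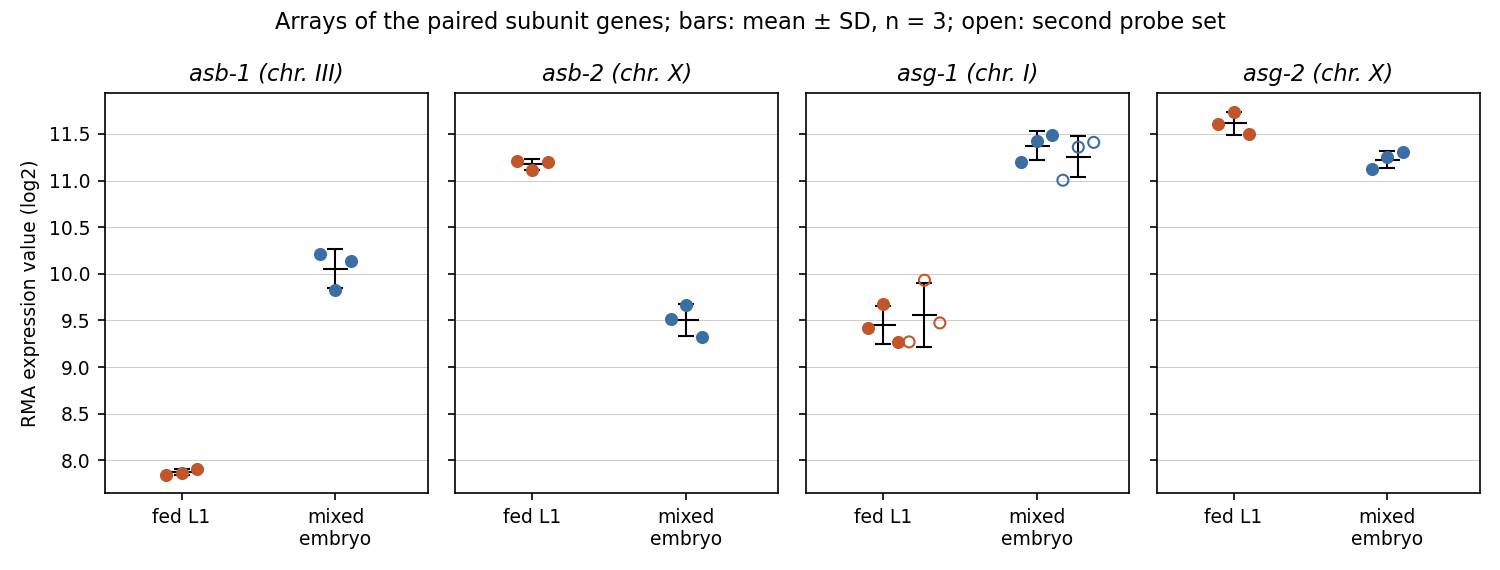
RMA expression value (log2) of each array for the 4 genes, with fed L1 to the left of mixed embryos; bars are mean ± SD over 3 arrays, and open circles show the second probe set of *asg-1*. The L1 arrays lie below the embryo arrays for *asb-1* and *asg-1* and above them for *asb-2* and *asg-2*. Levels of different genes come from different probes and are not comparable with each other.

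The question put to these data is how the copies of one subunit changed relative to each other. A probe set's level cannot be set against that of another, so the change of one copy was set against the change of the other. The log2 difference of *asb-2* exceeded that of *asb-1* by 3.85 (SE 0.21), a 14.5-fold shift in their ratio between the stages. For *asg-2* and *asg-1* the excess was 2.31 (SE 0.06), a 4.96-fold shift, and 2.09 with the second probe set of *asg-1*. In both pairs the X-linked copy gained on the autosomal one in L1. On the main scale most of the shift in the g subunit pair lay in *asg-1*, whereas in the b subunit pair both copies moved by more than 1.5 log2 units. Centring the arrays in another way shifts both copies alike and leaves these values as they are.

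The arrays of a stage did not scatter in the same way in the pairs. Relative to the embryo mean of each gene, L1 replicates 1, 2 and 3 stood at -1.96, -1.70 and -2.11 for *asg-1* and at 0.39, 0.51 and 0.27 for *asg-2*. Replicate 2 was highest and replicate 3 lowest for both g subunit genes. Embryo arrays A, B and C stood at -0.17, 0.05 and 0.12 for *asg-1* and at -0.11, 0.03 and 0.08 for *asg-2*, in the same order. For *asb-1* the embryo arrays stood at 0.15, -0.23 and 0.08, and for *asb-2* at 0.01, 0.17 and -0.18. Array B was thus the lowest embryo array for *asb-1* and the highest for *asb-2*. The error of the g subunit shift (SE 0.06) was smaller, and that of the b subunit shift (SE 0.21) larger, than the errors of the single genes. These errors are not of the same kind, since limma moderated those of the single genes but not those of the shifts.

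All 4 genes passed the limma threshold, 2 upward and 2 downward. Upward calls made up 33.2% and downward calls 31.2% of all genes. The stages did not overlap for any of the 4, which held for 70.6% of all genes. At least 2-fold calls, found for 34.4% of all genes, held for *asb-1*, *asb-2* and *asg-1*. These pairs were proposed with results of this comparison known, so the counts are a description and no p-value is given for the 4 genes. In size, the difference of *asb-1* exceeded that of 86.7% of genes, *asg-1* that of 83.7%, *asb-2* that of 80.1% and *asg-2* that of 43.3%.

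**Figure D2:**
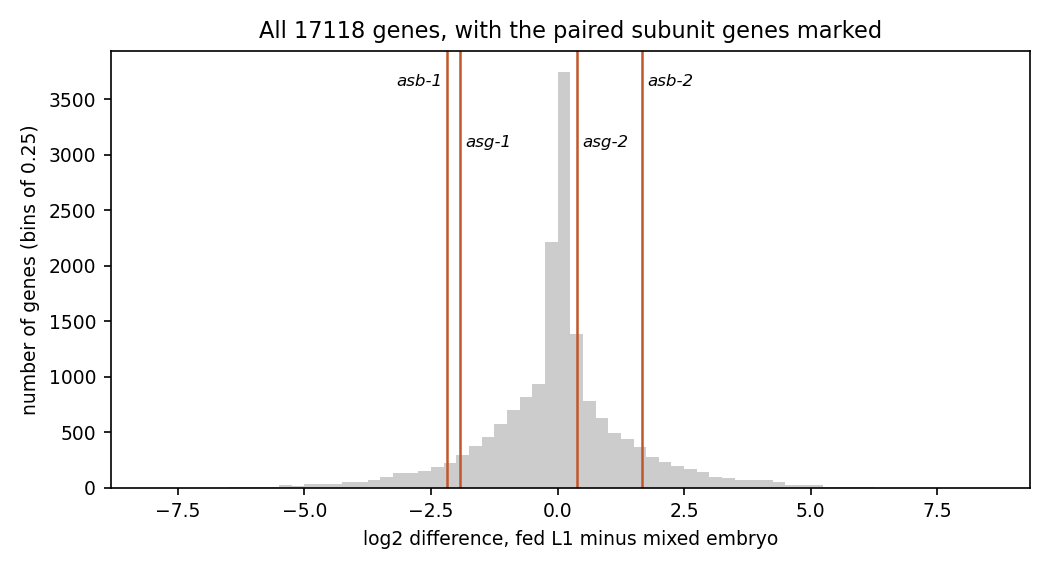
Number of genes by log2 difference, fed L1 minus mixed embryo, for all 17118 genes in bins of 0.25, with a line at each of the 4 genes. *asb-1* (-2.18) and *asg-1* (-1.92) lie on the lower shoulder, *asb-2* (1.67) on the upper shoulder and *asg-2* (0.39) near the centre.

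The rest of the complex was taken from a list of 14 genes for other ATP synthase subunits and inhibitors, of which 13 were measured. *R05D3.6* was read only by a probe set that also names another gene, which was not used. Of the 13 genes, 5 rose, 5 fell and 3 did not pass limma, with a median of 0.12, beside 33.2% rising, 31.2% falling and a median of 0.05 over all genes. Among the subunits of the catalytic head, *atp-1* (alpha) rose by 0.79 (SE 0.11, limma adjusted p = 8.21e-05) and *atp-2* (beta) rose by 0.58 (SE 0.16, limma adjusted p = 0.00764). *hpo-18*, which encodes the epsilon subunit of the rotating stalk, fell by 1.83 (SE 0.10, limma adjusted p = 5.68e-08). That fall is close in size to that of *asg-1*, with values of 11.25, 11.33 and 11.02 in fed L1, against 13.01, 13.05 and 13.04 in mixed embryos.

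The peripheral stalk, which holds the b subunit, has 3 other listed subunits with a gene class name. *atp-3*, for the subunit that joins the stalk to the head, differed by 0.12 and did not pass (limma adjusted p = 0.344). *atp-4*, for subunit F6, fell by 0.33 (SE 0.10, limma adjusted p = 0.0108). *atp-5*, for subunit d, differed by 0.03 (limma adjusted p = 0.787), and its other probe sets gave -0.20 and -0.17. None of these partners differed by as much as *asb-1* (-2.18) or *asb-2* (1.67).

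Genes of the list known by sequence name differed by at most 0.57 in either direction on their main probe sets. *Y69A2AR.18* and *F58F12.1* rose by 0.57 and 0.56, *R04F11.2* and *Y82E9BR.3* fell by 0.53 and 0.31, and *R53.4* differed by 0.13 without a call. The other probe sets of *Y69A2AR.18* and *R53.4* gave 0.72 and -0.23. Of all 13, only *hpo-18* and the inhibitor genes *mai-1* and *mai-2* differed by more than 1 log2 unit, and the second probe set of *mai-2* gave -0.93. With ribosomal protein centring 2 of the 13 rose and 6 fell, and the rises of *atp-2*, *F58F12.1* and *Y69A2AR.18* were no longer called (0.20, 0.18 and 0.18). With each array centred instead on the other subunits, a setting added with the data in view, *asb-1* stood at -2.21, *asb-2* at 1.64, *asg-1* at -1.95 and *asg-2* at 0.36.

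**Figure D3:**
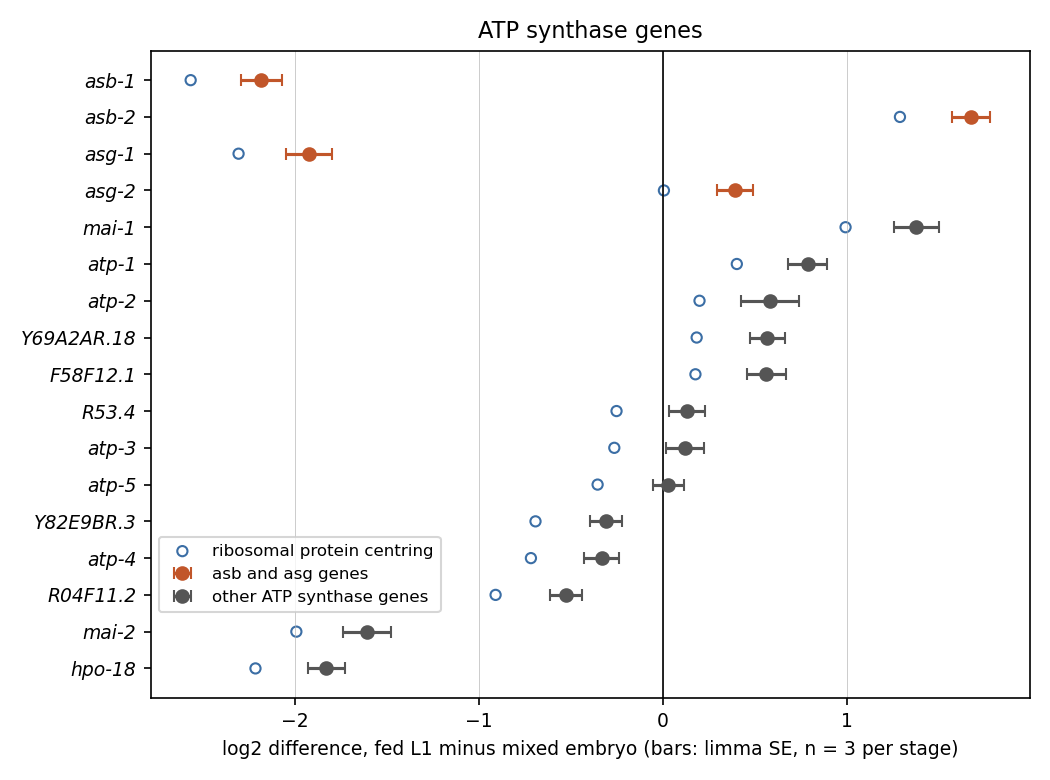
Log2 difference, fed L1 minus mixed embryo, of the 4 paired subunit genes (top) and 13 other ATP synthase genes; filled points are the main values with limma's SE over 3 arrays per stage, and open circles the values with ribosomal protein centring. *asb-1*, *asg-1*, *hpo-18* and *mai-2* lie beyond -1 and *asb-2* and *mai-1* beyond 1, and the open circle of *asg-2* lies at 0.0051.

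Other mitochondrial energy genes with paralogues were set beside the asb and asg pairs, and their grouping by chromosome was chosen after the values were seen. Counting asb and asg, 5 sets had both an X-linked and an autosomal copy measured. The set of *hpo-18* (chromosome V, -1.83) and *R05D3.6* is not among them, since only *hpo-18* was measured. On the main probe sets of those 5 sets, 6 of 6 X-linked copies were higher and 5 of 5 autosomal copies lower in L1. This tally includes the asb and asg genes, which were chosen with their stage differences known. It also counts *sdha-1*, whose second probe set did not show the rise (-0.02). With ribosomal protein centring *asg-2* (0.0051) and *sdha-1* (0.20) were not called. Among all X-linked genes 39.9% were called higher in L1 and 30.9% lower, against 32.2% higher and 31.2% lower among autosomal genes.

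The 3 sets beyond asb and asg code for the ATPase inhibitor, the succinate dehydrogenase flavoprotein and a core subunit of complex III. The inhibitor gene *mai-1* (chromosome X) rose by 1.38 (SE 0.12, limma adjusted p = 2.80e-06), and *mai-2* (chromosome IV) fell by 1.61 (SE 0.13, limma adjusted p = 1.09e-06; -0.93 on its second probe set). Of the flavoprotein genes, *sdha-1* (X) rose by 0.58 and *sdha-2* (I) fell by 1.91, and the second probe set of *sdha-1* differed by -0.02. Of the complex III genes, *ucr-2.1* and *ucr-2.2* (both X) rose by 1.2997 and 0.827, and *ucr-2.3* (III) fell by 1.85. With ribosomal protein centring *sdha-1* lost its call (0.20). The X-linked copy exceeded the autosomal copy by 2.98 (SE 0.10) for mai, by 2.49 (SE 0.37) for sdha, by 3.15 (SE 0.15) for *ucr-2.1* over *ucr-2.3* and by 2.68 (SE 0.18) for *ucr-2.2* over *ucr-2.3*. For each of these 4 pairs a 2-sided exact permutation test of the array labels gave p = 0.1, also after Benjamini-Hochberg adjustment. That is the lowest value 3 arrays against 3 can give, so no pair could have reached the threshold set for limma. The grouping by chromosome was also chosen with the values in view, so no conclusion is drawn from this test. With the other probe sets of *mai-1* and *mai-2* the mai shift was as low as 2.19, and with the second probe set of *sdha-1* the sdha shift was 1.90. The shift of 3.85 in the b subunit pair exceeded that of each of these pairs with any of their probe sets, a difference that was not tested.

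**Figure D4:**
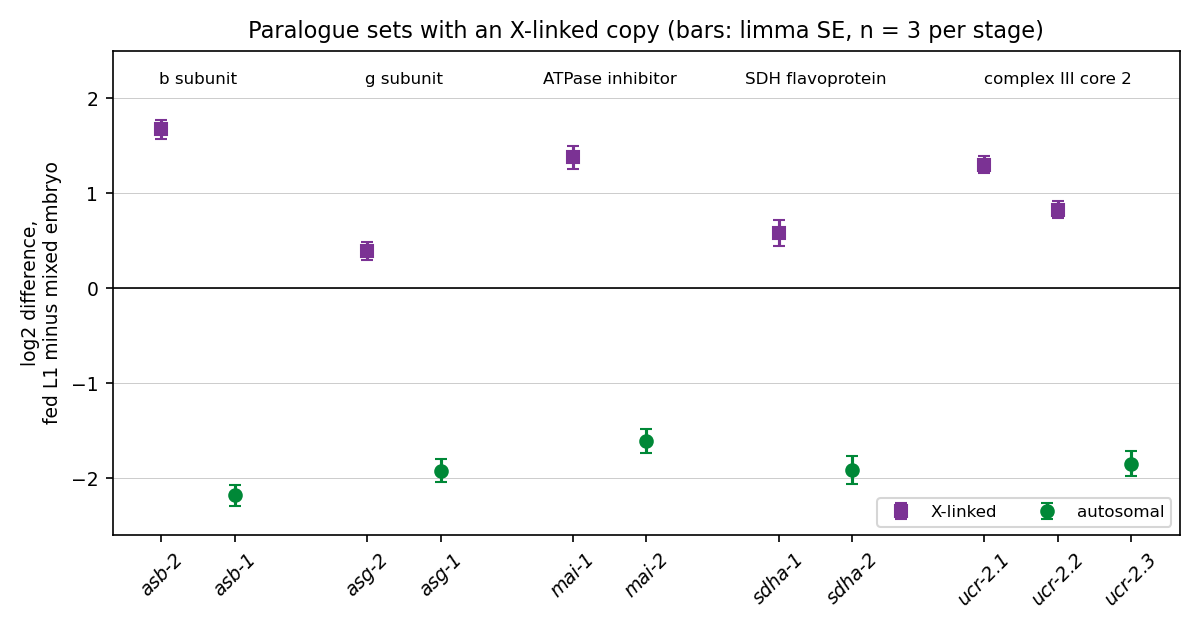
Log2 difference, fed L1 minus mixed embryo, of each gene in the 5 paralogue sets that hold an X-linked copy; squares are X-linked, circles autosomal, and bars limma's SE over 3 arrays per stage. On the main probe sets shown, every square lies above 0, from 0.39 (*asg-2*) to 1.67 (*asb-2*), and every circle below it, from -1.61 (*mai-2*) to -2.18 (*asb-1*).

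Respiratory chain genes, taken by gene class and including assembly factors of complex IV, numbered 37. Of these 9 rose, 19 fell and 9 did not pass limma. That is 24.3% rising and 51.4% falling with a median of -0.29, beside 33.2%, 31.2% and 0.05 over all genes. Within the list the largest rise was that of *ucr-2.1* and the largest fall that of *sdha-2*, both given above. *asb-1* therefore differed by more than any falling gene of this list on the main scale, and *asb-2* by more than any rising one. *asg-1* (-1.92) and *sdha-2* (-1.91) are within each other's error. The second probe set of *asg-1* gave -1.70, a smaller fall than those of *sdha-2* and *ucr-2.3* (-1.85).

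Genes with the most similar profile over the 6 arrays were ranked by the root mean square distance between log2 values after each gene's own mean was taken off. Nearest to *asb-1* were *rnst-2* (0.041), *ent-5* (0.045) and *lido-2* (0.048). Nearest to *asb-2* were *dpf-6* (0.042), *lgc-49* (0.052) and *mma-1* (0.055). For *asg-1* they were *rabr-1* (0.065), *lrx-1* (0.070) and *lsm-7* (0.075), and for *asg-2* *nssp-75* (0.036), *fbxa-13* (0.038) and *sdz-3* (0.042). Only genes with a gene class name were ranked, so ATP synthase genes known by sequence name could not appear. No paralogue or ATP synthase gene with such a name was listed, which for paralogues follows from their opposite differences. Counted over all genes, named or not, 312 lay within a distance of 0.2 for *asb-1*, 553 for *asb-2*, 294 for *asg-1* and 4210 for *asg-2*. Such likeness is thus common, most of all for the small difference of *asg-2*.

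Lists of germline and maternal genes, of muscle genes, of sperm genes and of vitellogenin genes were read on the same arrays. Over all genes 33.2% rose, 31.2% fell and the median was 0.05. Of 18 germline and maternal genes 17 fell and 0 rose with limma, with a median of -3.78. Their mean level per array was 6.14 to 6.17 in L1 and 9.41 to 9.77 in embryos, and *mex-1* and *nos-2* lay at foreign control level on all L1 arrays. The largest fall was that of *mex-6*, a regulator of embryonic polarity, with -5.38 (SE 0.18), and the gene without a call was the P granule helicase gene *glh-1* (-0.03). *asb-1*, the germline form of the b subunit, differed by less than the median of this list, which joins germline and maternal genes. Its fall (-2.18) was close to those of the P granule genes *pgl-1* (-2.19) and *glh-2* (-2.08). The P granule genes *pgl-3* (-1.18) and *glh-1* differed by less than *asb-1*. Of 12 body wall muscle genes 11 rose and 1 fell, with a median of 1.19 and a mean level per array of 11.35 to 11.43 in L1 and 9.81 to 10.06 in embryos. The largest rise was that of the troponin T gene *tnt-2*, by 3.75 (SE 0.10), and the actin gene *act-4* fell by 0.48. Of 26 sperm genes, 9 in L1 and 14 in embryos lay at foreign control level on all arrays of the stage. Of the 26, 10 rose and 0 fell with limma (14 at an unadjusted p under 0.05), against 2 rising and 11 falling with ribosomal protein centring, so their direction depends on the scale. Nearly all of these sperm genes were read by probe sets that can match related sequences, so their values may not be separate readings. Their mean level per array was 5.46 to 5.59 in L1 and 5.25 to 5.28 in embryos. Of 5 measured vitellogenin genes, made in the adult intestine, 3 lay at foreign control level in L1 and 3 in embryos. Limma called 0 of the 5, also at an unadjusted p under 0.05, and 3 as lower with ribosomal protein centring. The part of any of these tissues in the values of the asb and asg genes was not tested.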

How the data were processed

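Total RNA of 3 fed L1 and 3 mixed embryo samples was labelled as biotinylated cRNA from 8 µg for 1-channel Affymetrix arrays, as the labels state. The authors deposited log2 expression values made with RMA, per the submitters' processing notes. The RMA version, and whether all 6 arrays were normalized together, are not given in the sources used here. RMA equalises overall distributions and compresses low values, which hides a general change in RNA content.

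Of 22625 probe sets, 77 controls were left out. The platform annotation gave 1 gene to 20766, several to 887 and none to 895, and only the first kind was used, with the highest mean deciding for 2981 genes with several. Chromosomes came from the WBcel235 annotation in RefSeq, found for 17079 of 17118 genes, and no coordinates were used. Differences were fitted over all genes in R 4.3.3 with limma 3.58.1 (lmFit, eBayes, 2-sided), and called at p under 0.05 after Benjamini-Hochberg adjustment over all genes. The SE of a paralogue shift came from per-array differences of both genes. Steps were tested on simulated data. Alternatives were quantile normalization, centring on array medians or ribosomal proteins, other choices of probe set, eBayes with trend and robust settings, a filter at the 25th percentile of level, and leaving out each array. The number of arrays limits the precision.

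The members and lists were chosen with earlier results of these data known. Named genes were the 4 members, all of the ATP synthase and paralogue lists, the largest change each way in the other lists, and the 3 nearest profiles with a gene class name. *mex-1*, *nos-2*, *pgl-1*, *pgl-3* and *glh-2* were named after their values were seen.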

Additional observations from a re-analysis of the deposited data

How the results depend on the processing

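No paired analysis was possible because the stages share no replicate numbers, the larval arrays being numbered and the embryo arrays lettered. The differences of *asb-1*, *asb-2*, *asg-1* and *asg-2* kept their sign in every alternative run, and only ribosomal protein centring moved all 4 beyond their replicate spread, to -2.57, 1.29, -2.31 and 0.0051. Without each array in turn they ranged from -2.299 to -2.105, 1.58 to 1.75, -2.03 to -1.83 and 0.33 to 0.45. The shift of *asb-2* over *asb-1* then ranged from 3.73 to 4.05 and that of *asg-2* over *asg-1* from 2.28 to 2.36. The g subunit shift was 2.1998 with the mean of probe sets and 2.09 with the second probe set of *asg-1* (-1.70), the latter chosen after the data were seen. With probe sets of the stricter type alone, *asb-1* had no value.

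Ribosomal protein centring gave 3778 genes higher and 10071 lower over all genes, 2 rising ATP synthase genes, 3 rising and 7 falling genes in the other paralogue sets, and 4 rising respiratory chain genes. It lowers every difference alike by 0.38, and turned 9 of 24 other genes below 0, of which *atp-5* (-0.36), *ant-1.3* (-0.35), *ant-1.4* (-0.38) and *cyc-2.2* (-0.22) gained a call as lower, *ant-1.1* (-0.027) lost its call, and *atp-3* (-0.26), *R53.4* (-0.25), *ant-1.2* (-0.18) and *cyc-2.1* (-0.22) had none on either scale. With stricter probe sets alone, where fewer genes are tested, 1 ATP synthase gene and 4 respiratory chain genes rose, 10 germline genes fell and 6 muscle genes rose. Over 370 values of single other genes under the alternatives, 340 kept their sign and their side of the threshold, 23 changed sign, 6 gained a call and 6 lost one, some of them counted under both. Beyond ribosomal protein centring, 14 of 346 values changed sign, each without a call on either side, 1 call was lost (*ant-1.1*, quantile normalization) and 2 were gained, both of *ant-1.2*, one of them without embryo array B (0.29, limma adjusted p = 0.0292, against 0.105 with all arrays).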

Other observations

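The carrier that exchanges ADP for ATP across the inner mitochondrial membrane and cytochrome c, the mobile electron carrier, also have several gene copies, none of them X-linked here. Of the carrier genes, *ant-1.1* rose by 0.36 (SE 0.10, limma adjusted p = 0.00815), with 13.33 ± 0.05 in L1 and 12.97 ± 0.14 in embryos (SD, n = 3 each), a call lost with quantile normalization (0.23) and with ribosomal protein centring (-0.027). *ant-1.2*, *ant-1.3* and *ant-1.4* did not exceed foreign control level on any array and differed by 0.21, 0.03 and 0.0014 without a call. Of the cytochrome c genes, *cyc-2.1* differed by 0.16 (limma adjusted p = 0.196), and *cyc-2.2* lay at foreign control level on all arrays and differed by 0.17. Only *ant-1.1* and *cyc-2.1* of these sets exceeded foreign control level. Neither set could therefore show copies changing in opposite directions, and no contrast with the asb and asg pairs is drawn.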
